A study of Homo sapiens with 24 samples.

Results

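The HOX cluster genes encode homeodomain transcription factors that lie side by side in 4 clusters on chromosomes 7 (HOXA), 17 (HOXB), 12 (HOXC) and 2 (HOXD). Members were all protein-coding genes of the deposited table whose symbol is HOX, a cluster letter from A to D and a number. The rule found 39 of the 63677 genes in the table: 11 in HOXA, 10 in HOXB, 9 in HOXC and 9 in HOXD. HOXC4 has a second row, at 0 in every library, which was left out.

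In the embryo these genes give cells their position along the head-to-tail axis. The number in a symbol is the paralogue group, and it follows the order of the genes along the chromosome: low numbers act towards the head and high numbers towards the tail and the tips of the limbs. In cells that do not use them the clusters are classic targets of Polycomb repression, in which the methyltransferase EZH2 marks histone H3 at lysine 27, and many of their CpG-rich promoters gain DNA methylation in tumours. Retinoic acid switches on the low-numbered genes first.

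RNA was measured in 3 human liver cancer lines, HepG2, SNU398 and SNU475, each under 4 treatments with 2 libraries (A and B), which makes 24 libraries in 12 groups. Cells received DPBS (the buffer control), decitabine at 100 nM, GSK-126 at 500 nM, or both agents together. Decitabine is a cytidine analogue that traps DNA methyltransferases, and GSK-126 inhibits EZH2. Dosing was daily for 3 days, and cells were harvested on day 14 (HepG2, SNU398) or day 21 (SNU475), so a difference between SNU475 and the other lines cannot be told apart from the later harvest. The labels name no transgene or deletion in any group, and within a line the 3 treatments share the same 2 DPBS libraries as controls. Whether libraries A and B came from separate cultures is not stated in the sources used here, so p-values may measure only technical spread.

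Levels below are RPKM (reads per kilobase of transcript and per 1000000 reads) after scaling between libraries. The reads behind the RPKM values numbered about 32600000 to 60400000 per library. Changes are differences of log2(scaled RPKM + 0.5), which understate the change of genes near 0, and "rose", "fell" and "called" mean an adjusted p under 0.05 in limma over all 19377 genes tested. Of the 39 members 34 reached an RPKM of 0.5 in at least 2 libraries and were tested (10 HOXA, 9 HOXB, 7 HOXC, 8 HOXD). HOXA9, HOXB1, HOXC4, HOXC5 and HOXD4 were not. The untreated libraries alone would have passed 33 members, but the HepG2 libraries alone would have passed 6, so most HepG2 tests are on genes that entered through the other lines.

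The clusters are crowded: 36 of the 39 members overlap another gene of the table and 20 overlap another member. The library kit kept strand, but whether the counting used it is not given in the sources used here. Reads of a HOX gene and an overlapping antisense gene therefore may not be separated. HOXB1, HOXD12 and HOXD13 overlap nothing in the table. In these bulk libraries, fewer cells expressing a gene and less RNA per cell cannot be told apart.

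HepG2 carried the hepatocyte programme and the other lines largely did not. Of 19 hepatocyte markers 18 had a mean of at least 1 in HepG2, 4 in SNU398 and 8 in SNU475. Among those under 0.1 in SNU398 were CYP3A4, FOXA2, HNF4A, TAT and TTR. Of 10 fibroblast and stellate cell markers, 1, 8 and 7 reached that level in the same order. Of 5 epithelial markers, 5, 1 and 4 did. Summed epithelial marker levels ranged from 195 to 691 in HepG2, 5.21 to 8.47 in SNU398 and 631 to 779 in SNU475. Summed fibroblast marker levels ranged from 8.54 to 25.4 in HepG2 and from 645 to 734 in SNU398. Albumin was unequal between libraries of a group in SNU398 decitabine (22.1 in A, 0.369 in B) and SNU475 DPBS (24.1 and 1.09), against 2050 to 5540 in HepG2. APOA1, also a hepatocyte marker, was unequal in the same groups (5.87 and 0.159, 7.77 and 0.424). Summed hepatocyte marker levels ranged from 5.54 to 53.8 in SNU398 and from 6.81 to 93.2 in SNU475. The hepatocyte marker counts of these 2 lines, taken on means, may therefore rest in part on single libraries. The part of these marker differences in the HOX results was not tested.

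The promoters below, of members described in the treatment results, show how their CpG content differs. Which start site was used was not measured. HOXA10 has 2 starts in the RefSeq table, and the first is printed. They are RefSeq sequences of build GRCh38.p14, from 250 bases before to 50 after the annotated start, on the gene's strand, with each CpG in capitals. HOXD1 had the highest called log2 change in HepG2 after combined treatment. HOXB1, of the same paralogue group, and HOXA10 were read after decitabine in SNU398 and hardly at all without it. HOXD13 fell after GSK-126 in SNU398. The last 3 were chosen after their values were seen.
HOXD1 (chr2:176188418-176188717, plus strand): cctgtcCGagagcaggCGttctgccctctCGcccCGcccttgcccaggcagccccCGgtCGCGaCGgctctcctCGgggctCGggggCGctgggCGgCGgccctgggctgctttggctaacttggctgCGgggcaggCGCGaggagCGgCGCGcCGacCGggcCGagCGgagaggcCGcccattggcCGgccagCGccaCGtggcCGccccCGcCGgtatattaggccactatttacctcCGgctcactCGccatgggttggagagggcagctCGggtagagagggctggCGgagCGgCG
HOXB1 (chr17:48530962-48531261, minus strand): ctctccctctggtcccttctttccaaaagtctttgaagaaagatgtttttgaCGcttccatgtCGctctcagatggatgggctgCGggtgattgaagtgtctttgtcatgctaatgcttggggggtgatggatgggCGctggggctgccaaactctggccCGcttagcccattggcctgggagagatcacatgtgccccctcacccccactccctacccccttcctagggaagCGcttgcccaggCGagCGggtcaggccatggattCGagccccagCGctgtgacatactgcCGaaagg
HOXA10 (chr7:27179812-27180111, minus strand): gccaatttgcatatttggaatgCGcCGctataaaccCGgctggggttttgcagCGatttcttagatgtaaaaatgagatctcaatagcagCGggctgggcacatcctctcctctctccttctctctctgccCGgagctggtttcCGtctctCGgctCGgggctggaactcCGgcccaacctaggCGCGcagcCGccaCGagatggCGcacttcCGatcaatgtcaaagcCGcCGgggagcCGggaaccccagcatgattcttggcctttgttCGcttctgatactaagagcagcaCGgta
HOXD13 (chr2:176092471-176092770, plus strand): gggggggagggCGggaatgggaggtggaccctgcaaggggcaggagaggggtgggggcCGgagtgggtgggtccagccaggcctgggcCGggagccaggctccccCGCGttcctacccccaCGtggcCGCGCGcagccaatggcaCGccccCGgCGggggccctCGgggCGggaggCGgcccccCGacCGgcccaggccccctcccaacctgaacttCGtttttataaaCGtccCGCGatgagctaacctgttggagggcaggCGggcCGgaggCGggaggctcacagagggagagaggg

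The HOXD1 window holds 36 CpG, and 12.7% of the 35116 promoters of the same length in the table hold as many. HOXD13 holds 24 (33.9% of promoters hold as many), the first HOXA10 start holds 21 (39.5%, and its second holds 25) and HOXB1 holds 11 (54.7%). Over the 27 promoters of the 20 members found in the table, the median was 22 CpG and the range 0 to 44, against a median of 14 over all promoters. A CpG count is a description of the letters and says nothing of methylation, which was not measured in these libraries.

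In untreated HepG2 cells the HOX clusters were nearly silent, with 1 stretch of HOXA and single genes of HOXC and HOXD as the exceptions. Of 39 members 6 had a mean of at least 0.5 in HepG2, against 28 in SNU398 and 26 in SNU475. The 6 were HOXA3, a gene of the pharyngeal arches, at 4.06 ± 0.11 (SD, n = 2), HOXD1 at 2.35 ± 0.035, HOXA5 at 1.46 ± 0.23, HOXC9 at 0.997 ± 0.018, HOXA4 at 0.823 ± 0.1 and HOXA6 at 0.571 ± 0.052. No read fell on 11 members in either HepG2 DPBS library. The summed level of HOXB was 0.0271 in HepG2 and 32.1 in SNU398.

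**Figure D1:**
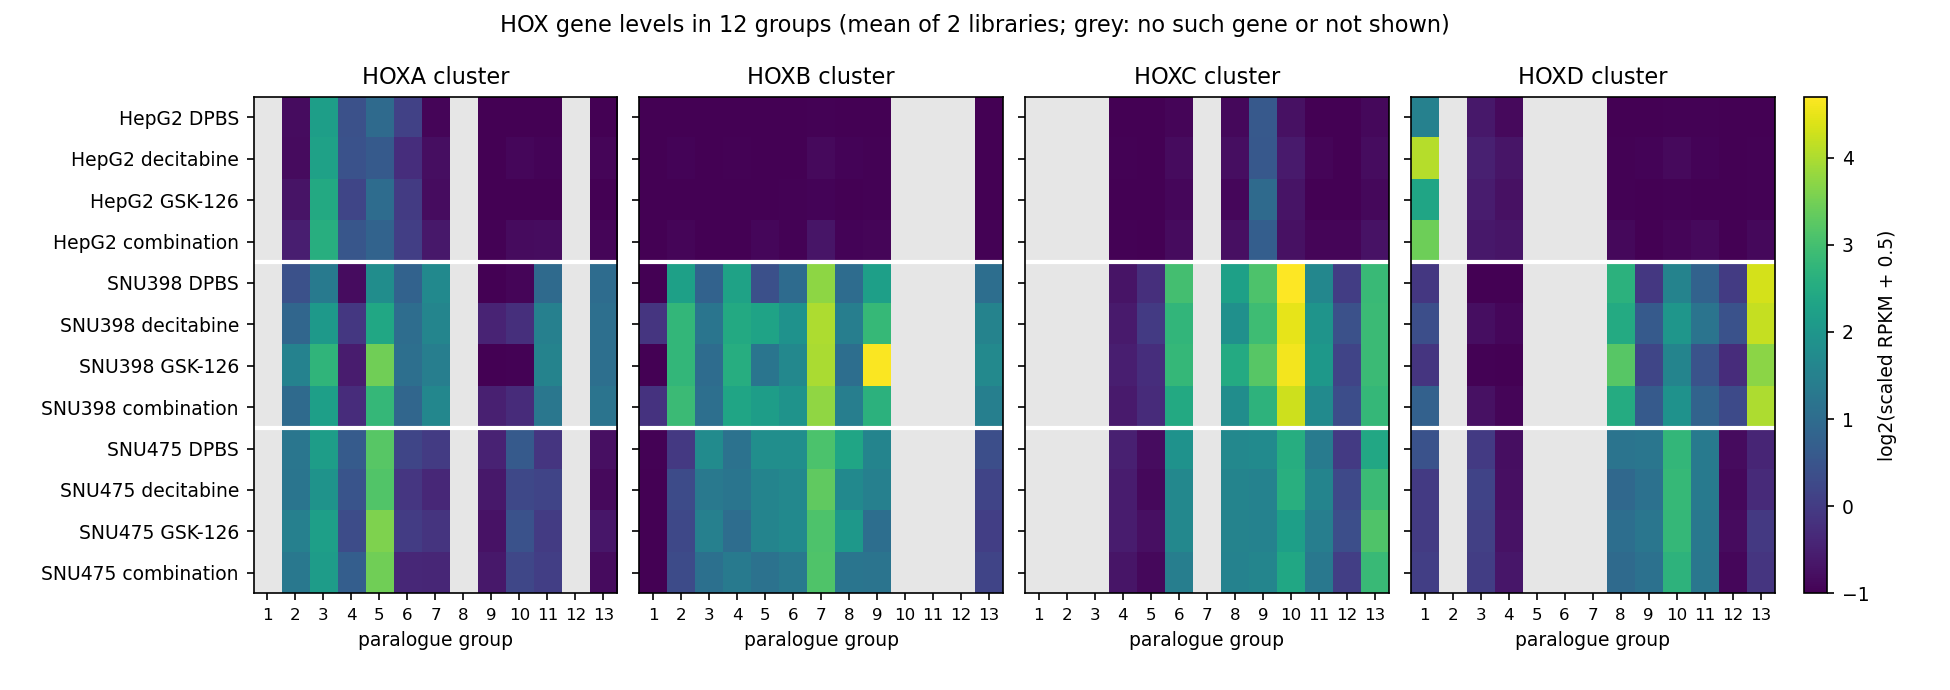
Mean level of HOX genes in the 12 groups, as log2(scaled RPKM + 0.5). Rows are cell line and treatment, columns are paralogue groups within each cluster, and grey marks a number that the cluster lacks or that is not shown. HepG2 rows are dark outside HOXA3 to HOXA6, HOXC9 and HOXD1, and HOXC10 and HOXD13 stand out in SNU398.

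SNU398 and SNU475 both used members of all 4 clusters, with different leading genes. The highest in SNU398 DPBS were HOXC10, a gene of hindlimb and lumbar identity, at 25.1 ± 0.3 (SD, n = 2), HOXD13, needed for digits, at 19.7 ± 0.2, and HOXB7 at 12.7 ± 0.13. In SNU475 DPBS they were HOXA5, which patterns neck, thorax and lung, at 8.78 ± 0.035, HOXB7 at 8.01 ± 0.7 and HOXD10 at 6.36 ± 0.052. The summed HOXC level in SNU398 was 55.4, the highest of its 4 clusters, and HOXA was the lowest at 16.0. HOXB7 spans HOXB8 and HOXB9 in the annotation, so its level may hold reads of both, which was not tested. With GSK-126 in SNU398, reads over both libraries went from 1527 to 7336 for HOXB9 and from 2606 to 2529 for HOXB7.

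Against HepG2, 29 of 34 members were higher in SNU398 and 4 were lower, where 40.0% of all genes tested were called higher and 36.5% lower. SNU475 had 31 higher and 1 lower, against backgrounds of 42.4% and 36.9%. Only 6 members pass the filter on the HepG2 libraries alone, so most were tested because another line reached it. The filter thus partly set these counts, and they do not measure HOX genes against all genes. The median member differed by 2.02 and 2.16 on the log2 scale. Scaling itself moved the median of all genes by -0.21 for SNU398 against HepG2 and by -0.11 for SNU475 against HepG2, which is small beside these values. HOXD13 was higher by 5.34 in SNU398 than in HepG2.

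Between SNU475 and SNU398 the calls ran both ways. In SNU475 14 members were higher and 19 lower, with backgrounds of 40.0% and 38.1% and a median of -0.38. HOXC showed 0 higher and 6 lower of its 7 tested genes.

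Levels of paralogue group 13, the last of each cluster, separated SNU398 from HepG2, and from SNU475 except for HOXC13. HOXD13 ranged over the 8 libraries of a line from 12.5 to 19.9 in SNU398, from 0.242 to 0.481 in SNU475 and from 0 to 0.0474 in HepG2. HOXC13, which drives hair keratin genes, ranged from 6.37 to 7.02 in SNU398, from 4.55 to 8.37 in SNU475 and from 0.0355 to 0.149 in HepG2. HOXB13, a prostate and hindgut gene, ranged from 1.55 to 2.81 in SNU398 and from 0.525 to 0.806 in SNU475. HOXA13 was at 1.49 to 1.89 in SNU398 and at most 0.0301 in HepG2. The ranges of SNU398 and HepG2 do not overlap for any of these 4 genes, and those of SNU398 and SNU475 overlap for HOXC13 only. Such separation was not limited to group 13. HOXC10 ranged from 18.6 to 25.4 in SNU398, from 3.93 to 5.68 in SNU475 and from 0.0643 to 0.17 in HepG2.

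In HepG2 most HOX genes stayed at low levels under every treatment, and HOXD1 had the highest called change on the log2(scaled RPKM + 0.5) scale. HOXD1, which acts in pain-sensing neurons, measured 2.33 and 2.38 in the DPBS libraries. It measured 16.5 and 15.8 after decitabine, 4.56 and 4.65 after GSK-126, and 10.1 and 10.4 after both. The 4 groups do not overlap, and the order was decitabine, combination, GSK-126, DPBS. Against DPBS the mean level was 6.88-fold, 1.96-fold and 4.37-fold, for decitabine, GSK-126 and the combination.

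On the log2 scale HOXD1 (hg19 chr2:177053307-177055688) rose by 2.55 ± 0.07 (SE) with decitabine (limma adjusted p = 8.3e-13), by 0.84 with GSK-126 (1.2e-07) and by 1.92 with both (6.7e-12). The combination was lower than decitabine alone by 0.63 (adjusted p = 3.2e-06). The interaction, meaning the combination change minus the sum of the single changes, was -1.47 ± 0.1 (1.5e-08). Its antisense neighbour HOXD-AS1, a long non-coding RNA that overlaps it, measured 3.15 and 3.16 in DPBS, 7.8 and 7.69 after decitabine, 5.67 and 5.75 after GSK-126, and 6.01 and 6.34 after both. HOXD-AS1 rose by 1.17 ± 0.04 with decitabine (adjusted p = 1.5e-11).

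**Figure D2:**
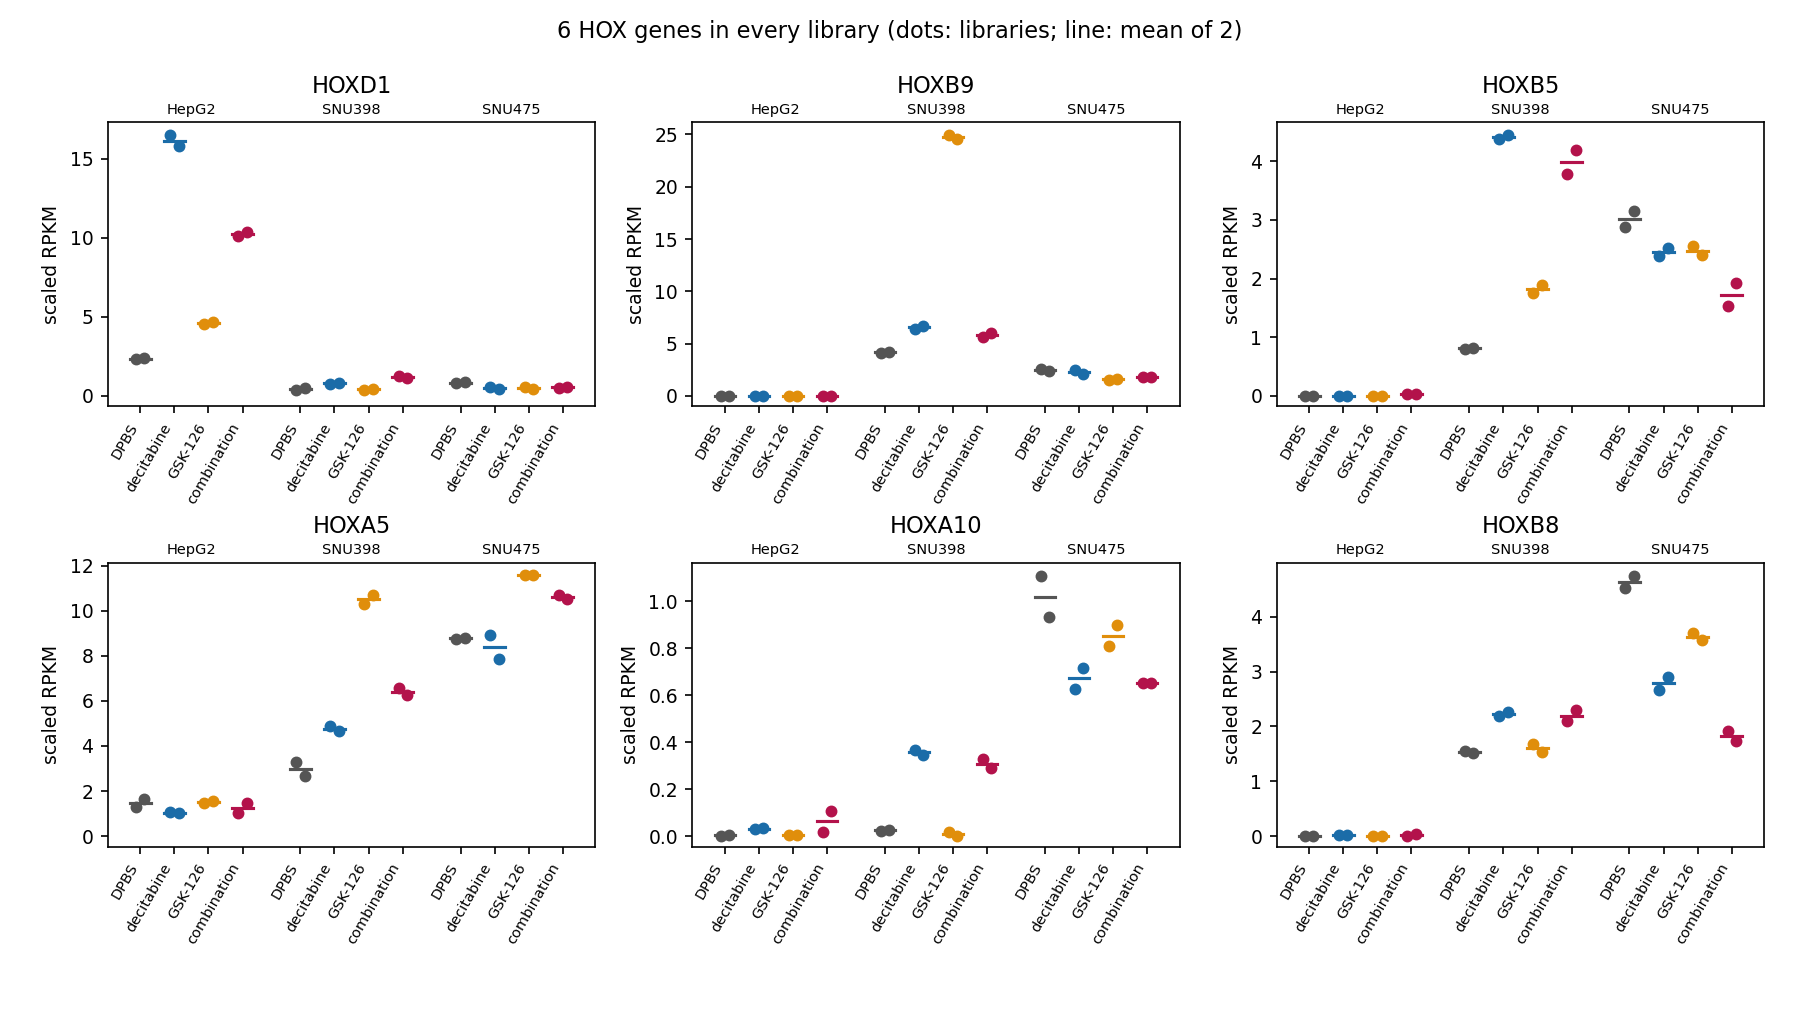
Scaled RPKM of HOXD1, HOXB9, HOXB5, HOXA5, HOXA10 and HOXB8 in every library, with points for libraries and a line at each group mean. HOXD1 is highest in HepG2 after decitabine (16.5 and 15.8), and HOXB9 in SNU398 after GSK-126 (24.9 and 24.6).

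The other HepG2 calls were small. Decitabine raised 4 of 34 members and lowered 2, with 35.9% of all genes called higher and 18.3% lower. GSK-126 raised 3 and lowered 1, with backgrounds of 31.0% and 21.7%. The combination raised 8 and lowered 0, with backgrounds of 40.6% and 25.9%. As shares of the members, the calls were 11.8% higher and 5.88% lower, 8.82% and 2.94%, and 23.5% and 0%, in the same order. On the log2(scaled RPKM + 0.5) scale HOXD1 was the only called HepG2 member past 2-fold after the combination, as were 6.44% of all genes. That scale damps genes near 0: HOXA7 was 4.69-fold in mean scaled RPKM, on 7 reads over both DPBS libraries and 21 over both combination libraries, and 17 members passed 2-fold with voom on recovered reads. The member medians of 0.05, 0.00 and 0.08 lay within 0.03 of the all-gene medians of 0.07, 0.03 and 0.08. The split moved with scaling: decitabine gave 1 higher and 2 lower without scaling and 1 and 9 with quantile normalization, and the combination gave 3 and 6 with quantile normalization. It moved with the pseudocount and the libraries too. The combination raised 19 members at a pseudocount of 0.1 and 18 with voom, and 5 without DPBS library B or combination library B. Decitabine raised 8 at a pseudocount of 0.1 and 11 with voom, 2 without DPBS library B and 1 without decitabine library A. How often HepG2 members were called relative to other genes is therefore not settled by these counts.

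After the combination, 4 of the 8 members that rose in HepG2 belong to the anterior paralogue groups 1 to 3, among them HOXD1, HOXA2 and HOXA3. These are 4 of 7 tested anterior members, beside 2 of 12 in groups 4 to 8 and 2 of 15 in higher groups. Of all genes 40.6% were called higher. Whether anterior members rose more often than others was not tested. Most tested members lie near 0 in HepG2, and the total of 8 moved with the processing. HOXA3 measured 3.98 and 4.14 in DPBS, 4.5 and 4.04 after decitabine, 4.82 and 5.23 after GSK-126, and 5.66 and 5.29 after both. Its groups overlap only between DPBS and decitabine. It rose by 0.28 with GSK-126 (adjusted p = 0.0016) and by 0.39 ± 0.06 with both (5.7e-05).

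The remaining HepG2 rises after the combination were HOXA7, HOXB7, HOXC13 and HOXD13, all near 0 in this line. HOXA7 measured 0.0532 and 0.00987 in DPBS and 0.132 and 0.164 after both, with a change of 0.29 ± 0.09 (adjusted p = 0.013). Its call was lost without DPBS library B (0.23, adjusted p = 0.1) and without combination library B (0.25, adjusted p = 0.074). HOXB7 changed by 0.28, HOXC13 by 0.16 and HOXD13 by 0.13. HOXD13 went from 0 in both DPBS libraries to 0.0474 and 0.0442.

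The single agents moved other HepG2 members slightly. HOXA6 measured 0.535 and 0.608 in DPBS and 0.397 and 0.268 after decitabine, a fall of 0.37 ± 0.11 (adjusted p = 0.012). HOXA5 measured 1.29 and 1.63 in DPBS and 1.07 and 1.01 after decitabine, a change of -0.34 ± 0.11 (adjusted p = 0.013). The HOXA5 call was lost without DPBS library B or decitabine library B. HOXC9 measured 1.01 and 0.984 in DPBS and 1.35 and 1.6 after GSK-126, a rise of 0.40 ± 0.07 (adjusted p = 0.00033). HOXA4 measured 0.896 and 0.749 in DPBS and 0.673 and 0.619 after GSK-126, a change of -0.21 ± 0.08 (adjusted p = 0.033) that was lost when DPBS library A or either GSK-126 library was left out. HOXC10 changed by 0.16 with decitabine (0.0643 and 0.128 to 0.161 and 0.17, adjusted p = 0.037) and had the opposite sign under quantile normalization (-0.14).

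Reads on the 33 members under 0.5 in HepG2 DPBS were more frequent after decitabine and after the combination, at low levels throughout. Their sum was 104 and 88 in DPBS, 165 and 141 after decitabine, 102 and 106 after GSK-126, and 127 and 175 after both. Per 1000000 reads these are 2.01 and 1.84, 3.76 and 3.16, 2.07 and 2.44, and 3.9 and 5.09. The decitabine and combination libraries lie above DPBS without overlap. The 33 members were chosen by their low level in the same DPBS libraries. Genes of the whole table above 0 numbered 25476 and 25499 in DPBS and 28540 and 28638 after decitabine. They numbered 26288 and 26332 after GSK-126, and 27613 and 28072 after both. A gain of genes read was therefore not limited to the members. Of the 33 members, 17 and 16 had a read in the DPBS libraries, 26 and 23 after decitabine, 14 and 17 after GSK-126, and 25 and 28 after both. The number of members with a mean of at least 0.5 was 6 in DPBS, 5 after decitabine, 5 after GSK-126 and 6 after the combination. At least 0.1 was reached by 7, 10, 9 and 13, in the same order. Members with 0 reads in both libraries numbered 11, 6, 15 and 4. Vimentin, a mesenchymal marker, moved in the same libraries, from 0.167 to 0.194 in DPBS to 0.534 to 1.09 after decitabine and 1.82 to 2.99 after both. Its relation to these reads was not tested.

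SNU398 responded across clusters, and HOXA and HOXB moved upward while much of HOXC did not. Decitabine raised 24 members and lowered 4 (backgrounds 23.4% and 15.4%). The combination raised 21 and lowered 5 (28.9% and 18.4%). GSK-126 raised 20 and lowered 5 (30.0% and 22.4%), a split that became 13 and 7 without scaling. The median member changed by 0.43, 0.30 and 0.24, against 0.02, 0.03 and 0.02 over all genes, for decitabine, the combination and GSK-126. Few rises reached 2-fold on this scale: 1 with decitabine (1.08% of all genes), 2 with the combination (1.59%) and 4 with GSK-126 (2.12%).

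**Figure D3:**
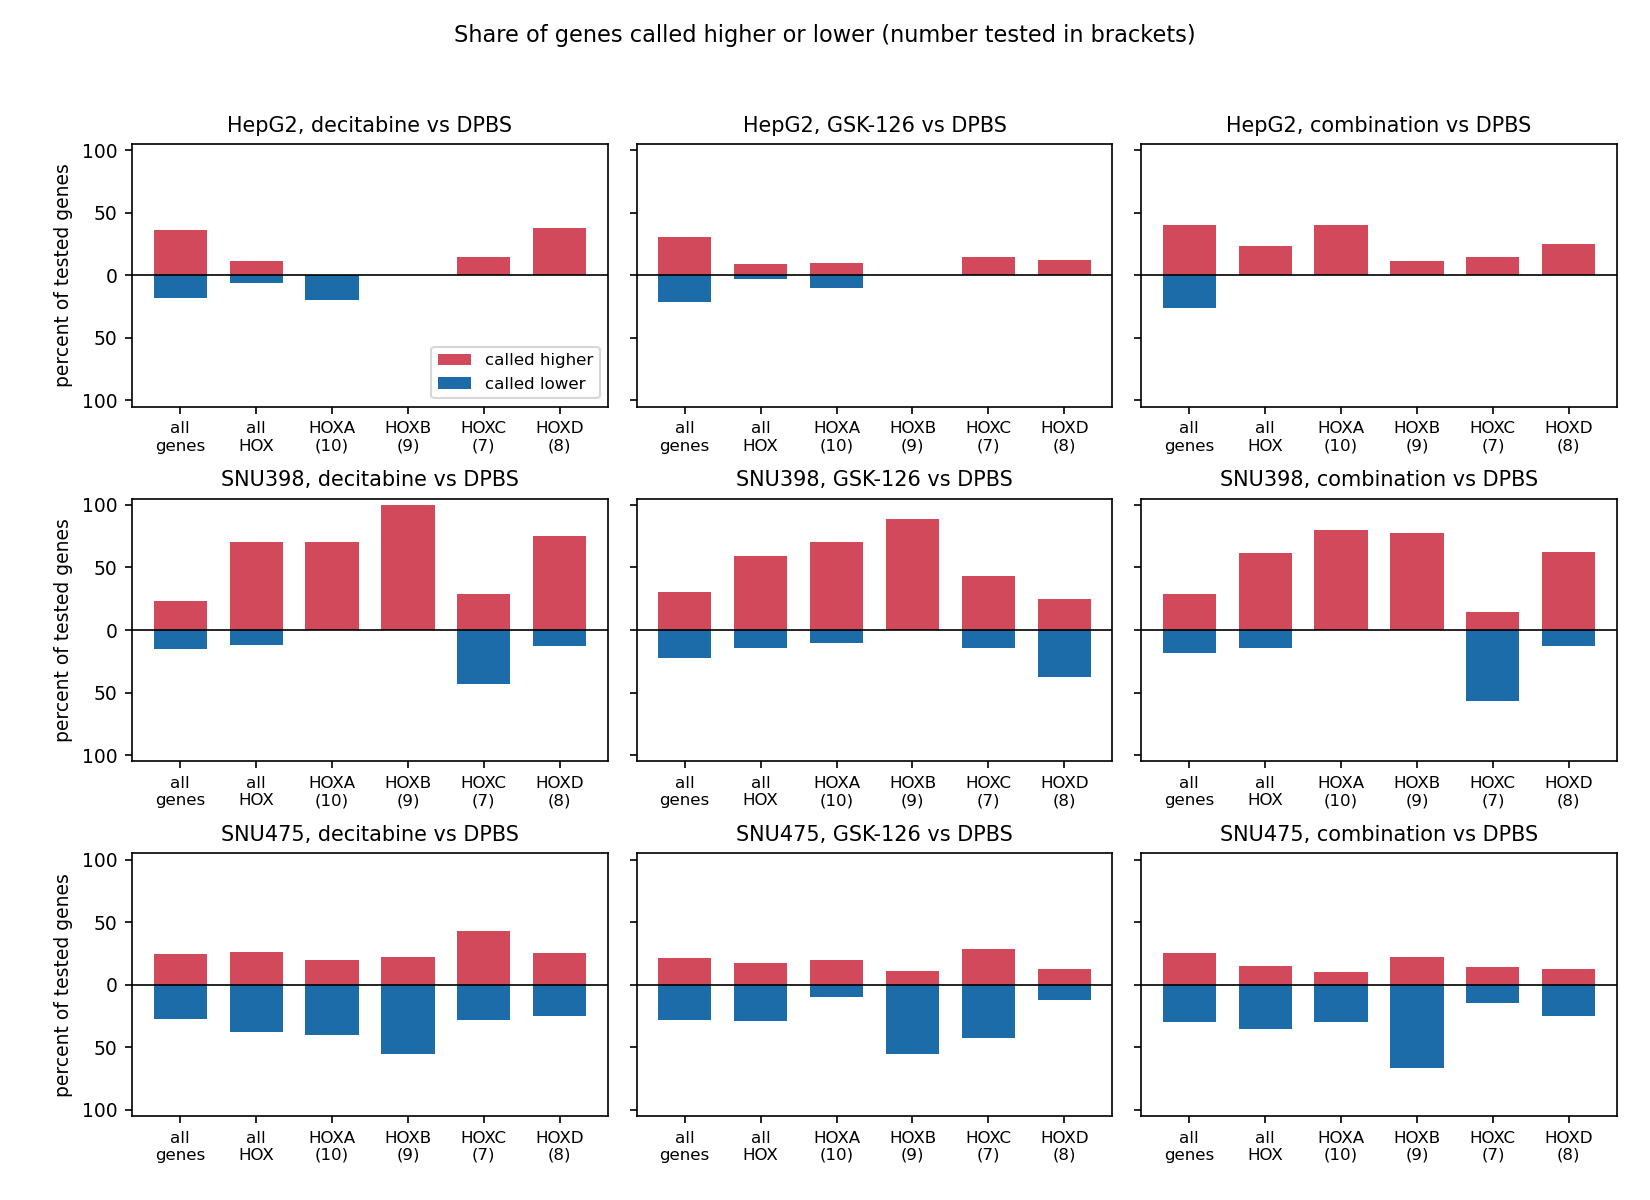
Percent of tested genes called higher (red, up) or lower (blue, down) against DPBS in each line and treatment, for all genes, all HOX genes and each cluster. In SNU398 the HOXA and HOXB bars point up in all 3 treatments, while HOXC shows 1 higher and 4 lower of 7 after the combination.

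In SNU398 the HOXB cluster had 9 of its 9 tested genes higher after decitabine, 8 after GSK-126 and 7 after the combination, with 0 lower in each. HOXA had 7, 7 and 8 of 10 higher, with 1 lower after GSK-126 only. HOXC had 2 higher and 3 lower of 7 after decitabine, 3 and 1 after GSK-126, and 1 and 4 after the combination. HOXD had 6 and 1 of 8, 2 and 3, and 5 and 1. The cluster medians after the combination were 0.54 for HOXA, 0.41 for HOXB, -0.42 for HOXC and 0.27 for HOXD. Whether clusters differ from one another was not tested, because genes of a cluster are not independent replicates.

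HOXB5, a gene of the foregut, lung and enteric nerves, had the highest called log2(scaled RPKM + 0.5) change in SNU398 with decitabine. Genes near 0 had larger ratios of mean level: HOXA10 was 14.7-fold, on 12 and 165 reads over both libraries, and HOXA4 6.62-fold, on 16 and 98. HOXB5 (hg19 chr17:46668619-46671323) measured 0.809 and 0.816 in DPBS, 4.38 and 4.44 after decitabine, 1.75 and 1.89 after GSK-126, and 3.78 and 4.2 after both. The groups do not overlap, and GSK-126 lies between DPBS and the other treatments. Mean levels were 5.42-fold, 2.24-fold and 4.91-fold those of DPBS. The log2 changes were 1.90 (adjusted p = 2.6e-11), 0.82 (6.9e-08) and 1.77 ± 0.07 (3.5e-11). The interaction was -0.95.

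Its neighbour HOXB6 measured 1.57 and 1.41 in DPBS, 3.29 and 3.16 after decitabine, 2.52 and 2.78 after GSK-126, and 3.26 and 3.29 after both. Decitabine raised it by 0.90 (adjusted p = 3.6e-09) and the combination by 0.93 ± 0.05 (1.5e-09). Libraries treated with decitabine, alone or combined, do not overlap those treated with GSK-126 alone.

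Under GSK-126 alone in SNU398, HOXB9, a gene of the thoracic skeleton, had the highest called change on the log2(scaled RPKM + 0.5) scale. HOXB9 (hg19 chr17:46698518-46703839) measured 4.14 and 4.23 in DPBS, 6.38 and 6.72 after decitabine, 24.9 and 24.6 after GSK-126, and 5.64 and 5.99 after both. The GSK-126 libraries stand far above the rest, and the combination lies between DPBS and decitabine. The mean level with GSK-126 was 5.92-fold that of DPBS. The log2 change was 2.43 ± 0.05 with GSK-126 (adjusted p = 1.6e-14), 0.59 with decitabine and 0.43 with both. The interaction was -2.59 ± 0.07 (1.2e-12), and the combination was lower than GSK-126 alone by 2.0 (1.3e-13).

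HOXA2, HOXA3 and HOXA5 also rose most with GSK-126 alone in SNU398. HOXA5 measured 3.29 and 2.68 in DPBS, 4.87 and 4.65 after decitabine, 10.3 and 10.7 after GSK-126, and 6.55 and 6.24 after both. The GSK-126 libraries are the highest, and the groups do not overlap. HOXA5 rose by 1.67 with GSK-126 (adjusted p = 3.8e-09), 0.60 with decitabine and 0.99 ± 0.11 with both (2e-06), and its interaction was -1.28 ± 0.15 (6.5e-06). HOXA3 measured 2.02 and 2.03 in DPBS, 6.33 and 6.03 after GSK-126, and 3.85 and 4.43 after both. HOXA3 changed by 1.40 and HOXA2, a gene of the second pharyngeal arch, by 1.11 with GSK-126. HOXA5 lies inside the annotated span of HOXA3, so their reads may be shared.

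The 2 SNU398 GSK-126 libraries had 60.9% and 57.2% of their reads in genes of the table, against 62.7% to 63.6% in the other SNU398 libraries. The part of this difference in the GSK-126 results was not tested.

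Over SNU398 as a whole, the single changes did not add up. A negative interaction was called in 20 of 34 members and a positive one in 2, where 22.8% of all genes were called negative and 18.4% positive. The median interaction was -0.33. The positive ones were HOXD1 and HOXD13. HOXD1 measured 0.396 and 0.512 in DPBS, 0.753 and 0.846 after decitabine, 0.398 and 0.448 after GSK-126, and 1.26 and 1.14 after both. The combination libraries lie above the rest, GSK-126 overlaps DPBS, and the interaction was 0.43 ± 0.1 (adjusted p = 0.0032). The combination differed from decitabine alone in 10 members (20.5% of all genes, either direction) and from GSK-126 alone in 28 (50.1%).

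Along HOXD in SNU398, GSK-126 lowered the genes at the tail end and not those nearer the centre. HOXD13 (hg19 chr2:176957619-176960666) measured 19.9 and 19.6 in DPBS, 18.1 and 18.0 after decitabine, 12.8 and 12.5 after GSK-126, and 15.0 and 16.2 after both. The groups do not overlap, and GSK-126 is the lowest. HOXD13 fell by 0.63 ± 0.03 with GSK-126 (adjusted p = 4.9e-10), changed by -0.33 with both and -0.13 with decitabine, and had an interaction of 0.42. HOXD11, a forearm gene, measured 1.3 and 1.16 in DPBS, 1.91 and 1.69 after decitabine, 0.845 and 0.903 after GSK-126, and 1.25 and 1.28 after both. HOXD11 changed by -0.33 ± 0.07 with GSK-126 (0.00094), and its combination libraries overlap those of DPBS.

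HOXD12 changed by -0.26 with GSK-126, HOXD10 by 0.02 (not called), HOXD9 by 0.26 and HOXD8 by 0.55. HOXD3 and HOXD1 changed by 0.03 and -0.05, neither called. HOXD8 measured 6.04 and 5.6 in DPBS, 8.9 and 8.6 after GSK-126, and 5.32 and 5.13 after both. It was the only HOXD gene besides HOXD9 called higher with GSK-126.

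**Figure D4:**
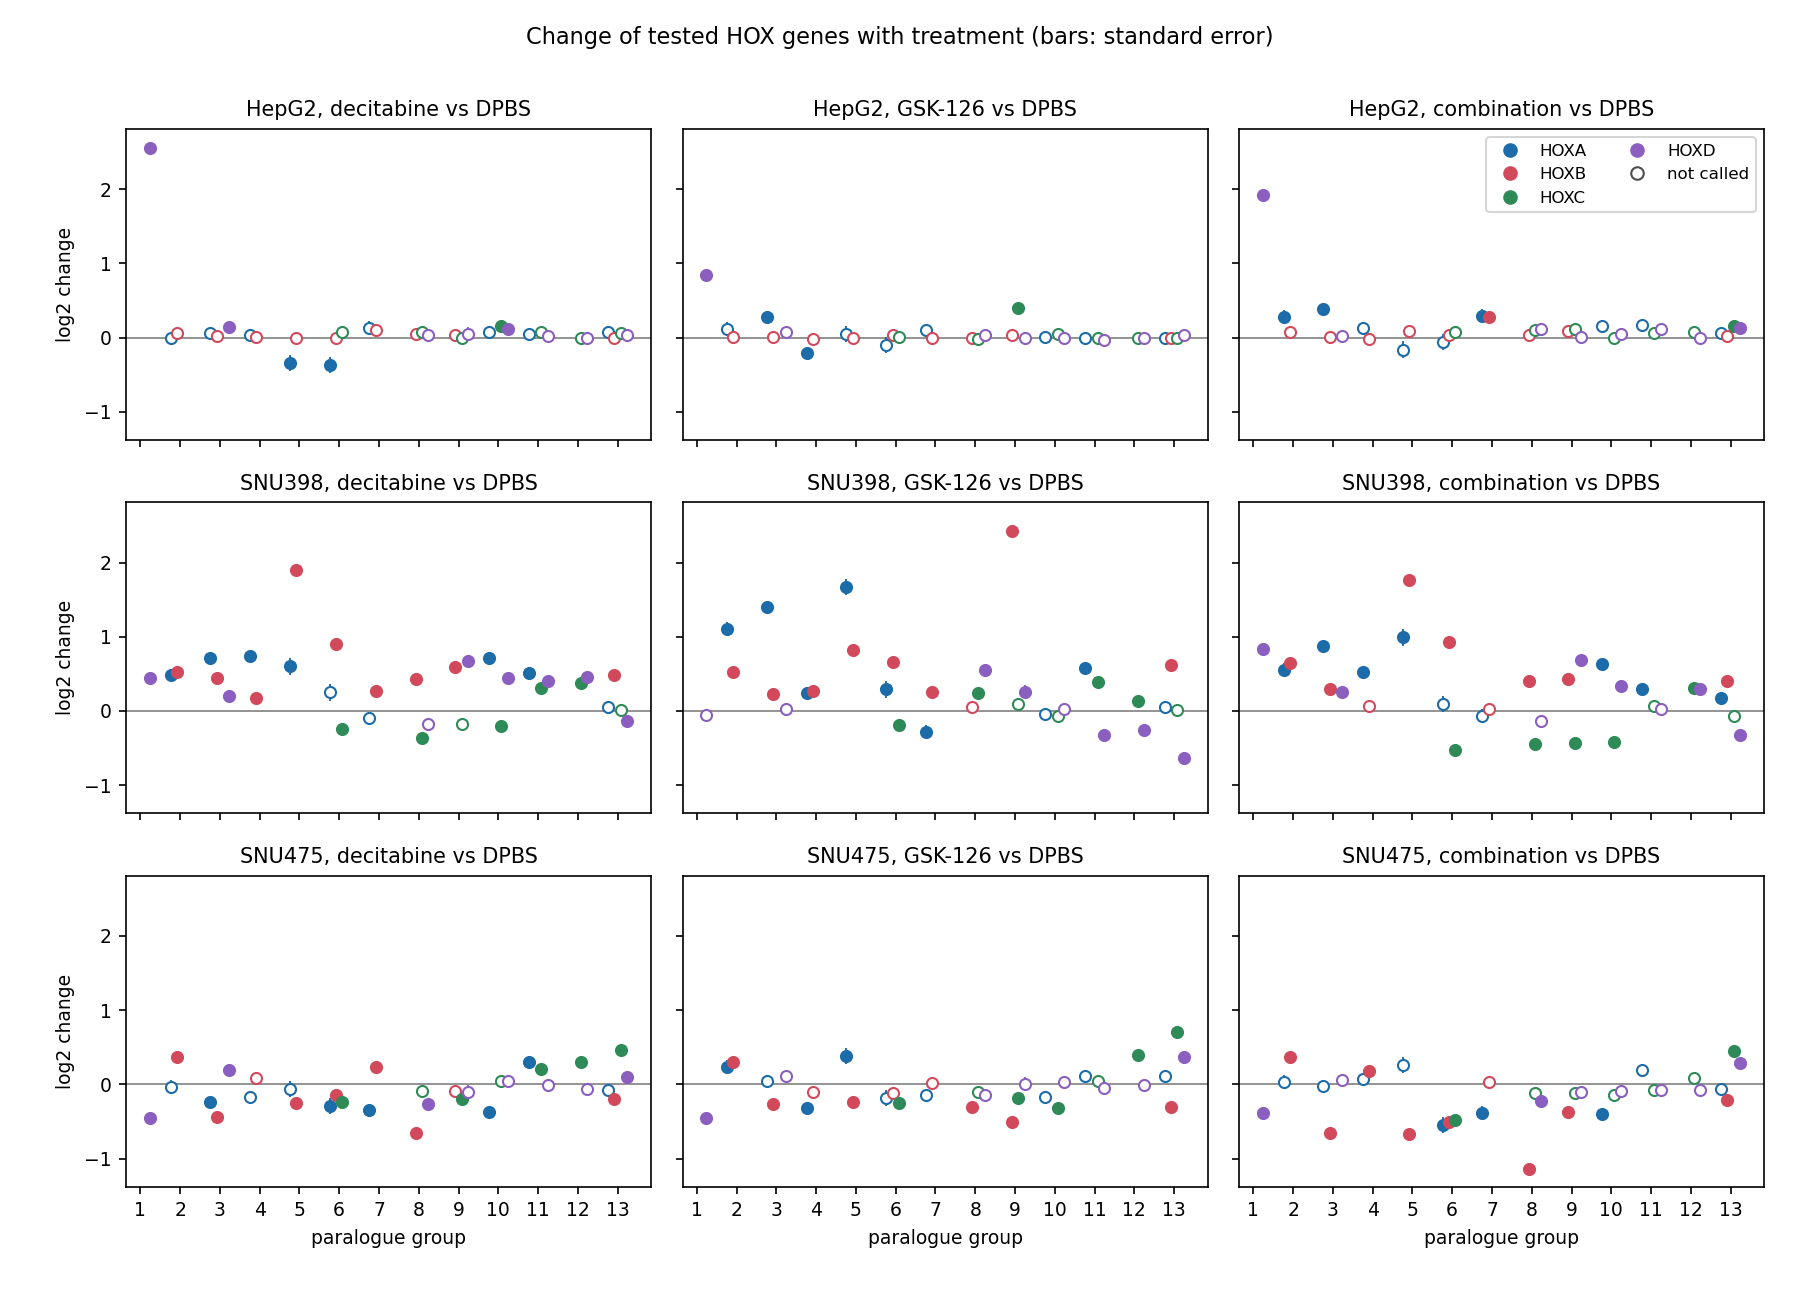
Log2 change against DPBS (± SE) of the tested HOX genes shown, by paralogue group, coloured by cluster, in the 9 line and treatment comparisons. Open symbols were not called. In SNU398 with GSK-126, HOXD declines from 0.55 at group 8 to -0.63 at group 13, and HOXB9 stands alone at 2.43.

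Position within the cluster ordered the SNU398 changes only loosely. All 7 tested anterior members rose after decitabine and after the combination, and 5 after GSK-126, with 0 lower. Of the 12 central members (groups 4 to 8) 5 rose and 2 fell after the combination. Of the 15 posterior members (groups 9 to 13) 9 rose and 3 fell. As a description over 34 genes that share libraries, Spearman's rho between change and paralogue group was -0.30 with decitabine, -0.38 with GSK-126 and -0.43 with both. Over the 7 HOXC genes it was 0.89 with both, the opposite order, 0.82 with decitabine and 0.25 with GSK-126. This HOXC order was not limited to SNU398. The same genes gave 0.89, 0.96 and 0.75 in SNU475, and 0.21, -0.43 and -0.18 in HepG2.

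Among the 7 tested HOXC genes of SNU398, those that fell had the lower numbers. HOXC4 and HOXC5 stayed under the filter. In a limma fit without the filter they changed by 0.1 and -0.08 with both, neither called (adjusted p = 0.29 and 0.59). HOXC6 measured 7.52 and 7.35 in DPBS, 6.41 and 6.04 after decitabine, 6.37 and 6.5 after GSK-126, and 5.12 and 4.97 after both. The single treatments overlap each other, and the combination is lowest. HOXC6 changed by -0.52 ± 0.04 with both (adjusted p = 1.8e-08) and by -0.24 with decitabine (7e-05). HOXC8, a gene of the brachial spinal cord, measured 4.51 and 3.97 in DPBS, 3.05 and 3.25 after decitabine, 5.11 and 5.09 after GSK-126, and 2.81 and 3.16 after both. HOXC8 changed by -0.37 with decitabine (0.00056), by 0.24 with GSK-126 and by -0.44 ± 0.07 with both (8.9e-05). HOXC9 and HOXC10 changed by -0.43 and -0.42 with both, while HOXC12 changed by 0.31.

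A few members, picked out after their values were seen, were nearly unread in SNU398 DPBS and GSK-126 libraries and read in every decitabine library. HOXB1 had 1 and 0 reads in DPBS libraries A and B, 75 and 55 after decitabine, 0 and 0 after GSK-126, and 47 and 61 after both. HOXA9, whose misregulation drives leukaemias, had 1 and 0, 40 and 35, 0 and 0, and 24 and 37. HOXA10, a gene of the uterus and hindlimb, had 6 and 6, 86 and 79, 4 and 0, and 60 and 66. HOXD3 had 0 and 0, 30 and 22, 5 and 2, and 27 and 30. For all 4 genes, the 4 libraries that received decitabine lie above the 4 that did not.

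HOXB1 and HOXA9 stayed under the filter, and the limma fit without the filter gave their changes. HOXB1 rose by 0.87 ± 0.05 with decitabine (adjusted p = 6.7e-09) and by 0.83 with both (5.8e-09). HOXA9 rose by 0.55 (2.3e-05) and 0.50 (3.3e-05). Both gave -0.01 with GSK-126. HOXA10 passed the filter and changed by 0.71 with decitabine (1.6e-06), 0.63 with both, and -0.04 with GSK-126 (0.72).

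HOXA9 and HOXA10 overlap the antisense RNA HOXA10-AS, which was at 0 in both DPBS and both GSK-126 libraries of SNU398. HOXA10-AS measured 0.432 and 0.382 after decitabine and 0.431 and 0.402 after both. HOXB1, whose printed promoter has the fewest CpG of the 4, overlaps no gene of the table. HOXD4 showed 5 and 2 reads after decitabine, 0 and 1 after GSK-126 and 1 and 4 after both, against 0 and 0 in DPBS, which is too few to compare.

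In SNU475 the members moved both ways, as did all genes tested. Decitabine raised 9 and lowered 13 (backgrounds 24.2% and 27.3%), which became 10 and 9 with quantile normalization. GSK-126 raised 6 and lowered 10 (21.5% and 28.5%). The combination raised 5 and lowered 12 (25.3% and 29.6%). The member medians were -0.08, -0.11 and -0.09, against -0.01, -0.02 and -0.01 over all genes. As shares of the members, 38.2%, 29.4% and 35.3% were called lower.

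HOXB had 2 higher and 6 lower of 9 in SNU475 after the combination, with a median of -0.37. The 6 were HOXB3, HOXB5, HOXB6, HOXB8, HOXB9 and HOXB13. HOXB8, which acts in blood progenitors and microglia, had the lowest called log2 change. HOXB8 (hg19 chr17:46688739-46692478) measured 4.53 and 4.75 in DPBS, 2.66 and 2.91 after decitabine, 3.71 and 3.57 after GSK-126, and 1.92 and 1.74 after both. The 4 groups do not overlap, and the combination is the lowest. The changes were -0.65 with decitabine (adjusted p = 9.5e-08), -0.31 with GSK-126 and -1.14 ± 0.05 with both (1.4e-10). HOXB8 lies within the span of HOXB7, which changed by 0.03 with both and was not called.

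HOXB5, which rose in SNU398, fell in SNU475. It measured 2.88 and 3.16 in DPBS, 2.38 and 2.53 after decitabine, 2.55 and 2.4 after GSK-126, and 1.53 and 1.92 after both. All treated libraries lie under the DPBS ones. The change with both was -0.67 (adjusted p = 6.9e-07). HOXB3 changed by -0.65, HOXA6 by -0.55, HOXB6 by -0.51 and HOXC6 by -0.48 with both. HOXB9 measured 2.54 and 2.4 in DPBS, 1.55 and 1.63 after GSK-126, and 1.81 and 1.78 after both, and changed by -0.51 with GSK-126 (4.8e-07), the opposite sign to SNU398.

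HOXB2, HOXB4, HOXC13 and HOXD13 were among the members that rose in SNU475 after the combination. HOXC13 measured 5.15 and 4.55 in DPBS, 6.45 and 7.3 after decitabine, 8.12 and 8.37 after GSK-126, and 6.68 and 6.94 after both. All treated libraries lie above DPBS, and GSK-126 is highest. HOXC13 rose by 0.46 with decitabine (2.8e-05), 0.71 with GSK-126 (3.8e-07) and 0.45 with both (2.9e-05), with an interaction of -0.72. HOXB2, a hindbrain gene, measured 0.506 and 0.409 in DPBS, 0.735 and 0.74 after decitabine, and 0.769 and 0.703 after both, and rose by 0.37 in each (9.1e-05 and 8.1e-05). HOXD13 rose by 0.29 with both (2.3e-06) and 0.37 with GSK-126, from a level of 0.242 and 0.253.

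HOXC12, next to HOXC13, measured 0.498 and 0.458 in SNU475 DPBS, 0.687 and 0.722 after decitabine, 0.848 and 0.743 after GSK-126, and 0.5 and 0.582 after both. The single agents lie above DPBS and above the combination. HOXC12 rose by 0.40 with GSK-126 (adjusted p = 1.7e-05), and its interaction was -0.62. HOXD1 measured 0.828 and 0.875 in DPBS, 0.551 and 0.42 after decitabine, 0.549 and 0.43 after GSK-126, and 0.534 and 0.544 after both. The treated libraries overlap each other and lie below DPBS. HOXD1 changed by -0.46 with decitabine (7.7e-05), -0.45 with GSK-126 (9.5e-05) and -0.38 with both, with an interaction of 0.53. HOXA4 had an interaction of 0.56, with 1.07 and 1.04 in DPBS, 0.849 and 0.923 after decitabine, 0.86 and 0.639 after GSK-126, and 1.14 and 1.12 after both.

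In SNU475 6 members had a positive interaction and 7 a negative one (19.7% and 16.7% of all genes). The combination differed from decitabine alone in 14 members (18.3% of all genes, either direction) and from GSK-126 alone in 15 (35.9%). In HepG2 there were 3 positive and 4 negative interactions (25.1% and 27.9%), which became 3 and 1 without scaling or with quantile normalization. The HepG2 combination differed from decitabine alone in 8 members (55.8% of all genes) and from GSK-126 alone in 7 (65.7%). HOXA6 had a positive interaction in HepG2 (0.41), and HOXC9 was negative (-0.27).

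Many HOX genes responded to the combination differently in different lines, as did most genes tested. For SNU475 and HepG2 the share of members was below that of all genes, and for the other pairs it was above. Most members were tested because SNU398 or SNU475 reached the filter, and lie near 0 in HepG2. The filter thus partly set the counts against HepG2, and they do not measure HOX genes against all genes. The change differed between SNU398 and HepG2 in 25 of 34 members (58.1% of all genes), between SNU475 and HepG2 in 18 (64.6%), and between SNU475 and SNU398 in 26 (56.5%). In the last comparison SNU475 was lower in 21 (33.8% of all genes) and higher in 5 (22.7%). HOXD1 rose less in SNU398 than in HepG2 by 1.09 (SE 0.1, adjusted p = 4e-07), where its changes were 0.83 and 1.92. HOXB5 differed by -2.44 between SNU475 and SNU398, and HOXB8 by -1.55.

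For the gene lists that follow, the shares of all genes called after the combination were 40.6% higher and 25.9% lower in HepG2, 28.9% and 18.4% in SNU398, and 25.3% and 29.6% in SNU475. Of 14 tested non-coding RNAs of the clusters, 9 rose and 3 fell in SNU398 after the combination (median 0.28), 5 and 0 in HepG2 (0.09), and 6 and 3 in SNU475 (0.19). Decitabine raised 9 of them and lowered 0 in SNU398, where it raised 23.4% of all genes and lowered 15.4%. GSK-126 also raised 9 and lowered 0 there, beside 30.0% and 22.4% of all genes. HOXC13-AS measured 0.878 and 0.815 in SNU398 DPBS and 2.79 and 3.06 after GSK-126, a rise of 1.35 (adjusted p = 1.6e-10), while HOXC13 itself changed by 0.01. Of 10 tested genes flanking the clusters, 4 rose and 4 fell in HepG2 after the combination, 3 and 3 in SNU398, and 2 and 4 in SNU475, counts close to those shares. CALCOCO1, beside HOXC, went from 1.39 ± 0.074 (SD, n = 2) to 4.11 ± 0.083 in HepG2, a change of 1.29.

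The TALE homeodomain proteins (PBX, MEIS and relatives) bind DNA together with HOX proteins. Of 10 tested, 3 rose and 3 fell in HepG2 after the combination (median 0.03), 4 and 3 in SNU398 (0.03), and 2 and 4 in SNU475 (0.05), counts close to the all-gene shares. In SNU475 MEIS2 changed by -0.87 (9.68 to 5.08). In HepG2 MEIS3 rose by 0.94, from 0.0585 to 0.576. Of the ParaHox genes, the sister group that includes CDX2 and PDX1, 2 were tested, and CDX2 rose by 0.19 in HepG2.

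Of 14 tested genes of retinoic acid synthesis, transport and response, 8 rose and 2 fell in SNU398 after the combination (median 0.36), 8 and 1 in HepG2 (0.15), and 0 and 9 in SNU475 (-0.19). The all-gene shares for the same comparisons were 28.9% higher and 18.4% lower, 40.6% and 25.9%, and 25.3% and 29.6%, and no test compared the list with other genes. DHRS3, a retinaldehyde reductase, went from 0.267 to 4.61 in SNU398, a change of 2.74 (adjusted p = 4.1e-15), and CRABP2, a retinoic acid carrier, from 0.485 to 3.51, a change of 2.02 (1e-08). ALDH1A1, which makes retinoic acid, went from 723 to 232 in SNU475, a change of -1.64 (1.1e-14).

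Polycomb genes repress the clusters and trithorax genes keep them active. Of 19 Polycomb genes, 7 rose and 10 fell in HepG2 after the combination (median -0.14), 8 and 8 in SNU398 (0.01), and 5 and 11 in SNU475 (-0.20), beside 40.6% and 25.9%, 28.9% and 18.4%, and 25.3% and 29.6% of all genes. EZH2, the target of GSK-126, measured 8.37 and 8.8 in HepG2 DPBS and 4.42 and 4.48 after GSK-126, and 14.7 and 15.3 in SNU398 DPBS and 19 and 18.8 after GSK-126. Of 11 trithorax and H3K27 demethylase genes, 3 rose and 4 fell in HepG2 (-0.06), 5 and 2 in SNU398 (0.02), and 3 and 5 in SNU475 (-0.16). KDM6B, an H3K27 demethylase, changed by 1.28 in HepG2 after the combination.

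Of 52 tested homeobox genes outside the clusters, 29 rose and 4 fell in SNU398 after the combination, with a median of 0.26 beside the HOX median of 0.30. In HepG2 13 rose and 5 fell (0.05), and in SNU475 7 and 13 (-0.01). The SNU398 backgrounds for this comparison are those given above, 28.9% higher and 18.4% lower. MSX1 and MSX2, homeobox genes of limb and craniofacial tissue, rose by 1.55 and 1.66 in SNU398. LHX1 changed by -1.23 and DLX2 by 1.39 in SNU475.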

How the data were processed

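Stranded libraries from rRNA-depleted RNA, 24 in all (3 lines, 4 treatments, 2 a group), were read from 1 end over 75 bases, per the labels' protocols. The authors deposited 1 gene table in RPKM. Alignment with HISAT2 to hg19 and counting with featureCounts come from the submitters' processing notes, with versions, annotation release and settings not given in the sources used here.

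RPKM values of short genes, 1411 to 2100 checked per library, were whole multiples of 1 read's worth in 100% of cases (tolerance 0.15). The unit was fitted on the same short genes and gave the reads behind every value. No member was among the values checked. The RPKM values were scaled by median ratios over 8211 genes (factors 0.847 to 1.158). Then log2(scaled RPKM + 0.5) was fitted with limma 3.58.1 in R 4.3.3, with trend and robust settings. The fit covered all 12 groups (12 residual degrees of freedom). Genes with RPKM of 0.5 or more in 2 libraries (19377) were tested with Benjamini-Hochberg adjustment. The fit was tested on simulated data. No count model was run. Other pseudocounts, filters, scalings, voom weights on recovered reads, single-line fits and left-out libraries were tried.

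Members and gene lists were chosen with earlier results of these data known. Members given in full were, per line, the highest and lowest called changes of each treatment and the strongest called interactions. Some genes that these rules name are not reported here, though counts over members and lists include them. Markers are the hepatocyte, fibroblast and epithelial lists of the report. Comparisons of lines for single drugs were added after values were seen.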

Additional observations from a re-analysis of the deposited data

Results flagged for a closer look

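The changes of several named members differed between lines, by a limma contrast of the changes themselves. No explanation was weighed for any of them. Each value is the difference of log2 changes, first SNU398 minus HepG2, then SNU475 minus HepG2, then SNU475 minus SNU398.

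For the combination, HOXD1 differed by -1.09, -2.3 and -1.21, so that HepG2 rose most. HOXB5 differed by 1.68, -0.76 and -2.44, and HOXB6 by 0.9, -0.54 and -1.44. HOXA5 differed by 1.15, 0.42 and -0.73, and HOXA3 by 0.48, -0.41 and -0.9. HOXB8 differed by 0.37, -1.19 and -1.55, so that SNU475 stood apart by its fall. HOXB2 differed by 0.57, 0.3 and -0.27, and HOXD13 by -0.46, 0.16 and 0.62.

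Other members differed in 2 of the 3 line comparisons. HOXA7 was -0.35 for SNU398 and -0.67 for SNU475, each against HepG2, and HOXC6 was -0.58 and -0.55. HOXC8 was -0.55 for SNU398 minus HepG2 and 0.32 for SNU475 minus SNU398. HOXC13 was 0.29 for SNU475 minus HepG2 and 0.52 for SNU475 minus SNU398.

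For single agents, HOXB9 under GSK-126 differed by 2.4, -0.54 and -2.94, with SNU398 as the line that rose. HOXD1 under decitabine differed by -2.1, -3.01 and -0.91. HOXB5 under decitabine differed by 1.9, -0.25 and -2.16. These single-agent comparisons were added after the values were seen.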

How the results depend on the processing

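Over the 51 named changes, a stricter filter left 49 of 49 on the same side of the threshold, a replicate block 51, pseudocount 0.1 50, pseudocount 1 49, no scaling 49, no filter 47, quantile normalization 47, voom 46 and single-line fits 45. Leaving out libraries kept 383 of 408. HOXC10 in HepG2 with decitabine turned to -0.14 under quantile normalization. Library letters do not pair the samples (correlations of deviations from -0.12 to 0.24), and the fit with the replicate block gave, for example, 24 higher in SNU398 with decitabine and 13 lower in SNU475 with both.

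Counts for HepG2 moved most. Decitabine, 4 higher, gave 8 at pseudocount 0.1, 2 at pseudocount 1, 2 with no filter, 1 with no scaling, 1 with quantile normalization and 11 with voom. Its 2 lower gave 9 with quantile normalization, 1 with voom and 0 in the single-line fit. The 1 lower with GSK-126 gave 0 at pseudocount 0.1, with no filter, with voom and in the single-line fit. The combination, 8 higher, gave 19 at pseudocount 0.1, 4 at pseudocount 1, 3 with quantile normalization and 18 with voom, and its 0 lower gave 6 with quantile normalization. Against decitabine alone, 8 called became 14 at pseudocount 0.1, 4 at pseudocount 1, 4 with no filter and 5 with no scaling. Against GSK-126 alone, 7 became 20 at pseudocount 0.1, 4 at pseudocount 1, 16 with voom and 12 in the single-line fit. The 3 positive interactions became 8 at pseudocount 0.1, and the 4 negative became 2 at pseudocount 1 and with no filter, and 1 with no scaling, quantile normalization, voom or the single-line fit.

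In SNU398, 4 lower with decitabine became 2 at pseudocount 0.1, and 20 higher with GSK-126 became 13 with no scaling. In SNU475, 6 positive and 7 negative interactions became 3 and 4 at pseudocount 0.1. Rises of 2-fold after the combination numbered 17 in HepG2 and 10 in SNU398 with voom, against 1 and 2.

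Leaving out 1 library each, HepG2 decitabine gave 1 to 4 higher (1 without decitabine A, 2 without DPBS B) and 0 to 2 lower, GSK-126 0 to 1 lower, and the combination 5 to 9 higher (5 without DPBS B or combination B) and 0 to 1 lower. HepG2 interactions gave 1 to 2 positive and 1 to 3 negative. Combination against decitabine gave 5 to 8 in HepG2, 6 to 10 in SNU398 (6 without decitabine B) and 7 to 13 in SNU475 (7 without combination A, 8 without decitabine B). SNU398 decitabine gave 2 to 4 lower (2 without DPBS A). Where a group kept 1 library, it was assumed to vary like the others. The causes of these differences were not tested.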
